A study of Mus musculus with 7 samples.

Results

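This account follows 33 genes listed for the peroxisome in mouse liver: 13 peroxins, which build the organelle, and 20 transporters and enzymes. Most of these 20 serve the entry of fatty acids, their oxidation or the export of the products. The 33 genes were chosen by name, as those whose symbol in the array platform's annotation was exactly that of a listed member. All 33 were found among 16468 named genes, each read by 1 probe. Arrays with 2 colours compared liver RNA of 7 mice with 1 common pool, made from the livers of 4 wild-type males and females. Wild-type littermates numbered 4 (1 female and 3 males), and mice labelled transgenic for Zfp90, which encodes a zinc finger protein, numbered 3 (1 female and 2 males). Per the labels, the animal's RNA carried Cy5 and the pool Cy3, and dye swaps were part of the design. Strain, age, diet, the promoter that drives the transgene and the number of transgenic lines are not given in the sources used here. All values below are log2 ratios of an animal to the pool, or differences between such ratios, so they compare animals for a gene and never the levels of different genes.

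Peroxisomes shorten very long, branched and bile acid side chains that mitochondria handle poorly, and pass the shortened products on as carnitine esters. Peroxins Pex3, Pex16 and Pex19 place proteins in the organelle's membrane, Pex5 and Pex7 are receptors that carry matrix enzymes to it, and Pex13 and Pex14 form the dock where those receptors land. In rodent liver the fatty acid receptor PPAR alpha is known to raise many of the oxidation enzymes.

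A value above 0 was taken to mean more RNA in the animal than in the pool. The Y-linked gene Kdm5d supports that reading array by array: it stood at -3.22 and -2.54 in the females and from 0.14 to 0.66 in the 5 males. Zfp90 itself read 0.34 in the transgenic female, 0.58 and 0.45 in the transgenic males, and -0.15, -0.29 and -0.11 in the wild-type males. The animal labelled wild-type female read 0.37, inside the transgenic range and next to the 0.34 of the transgenic female. Zfp90 thus did not tell the 2 females apart and bore out the genotype label of neither. The animal labelled wild-type female is called by that label throughout. Over all features, 3 pairs of arrays correlated below -0.3 (the lowest at -0.495, the transgenic female with wild-type male 4). Array medians lay between -0.01 and 0.03. Scanner intensities were not used here, so how far each probe stood above background is unknown.

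No peroxisomal gene passed the test between genotypes. In limma with genotype and sex as terms, 0 of 33 had an adjusted p under 0.05, where 0 of all 22218 features (0%) did, and adjusted p ran from 0.555 for Pecr to 0.998. An unadjusted p under 0.05 was reached by 7 members, 1 with a positive difference (Pecr) and 6 with a negative one (Abcd3, Hacl1, Scp2, Ech1, Eci2 and Crot), where 3.82% of all features reached it on the positive side and 3.1% on the negative side. Of the 33 differences, 23 were negative and 10 positive, and their median was -0.127, beside a median of -0.005 and 51.8% negative over all features. Among the peroxins 11 of 13 differences were negative (median -0.170), and among the transporters and enzymes 12 of 20 (median -0.073). The standard error (SE) of a single gene's difference had a median of 0.141 over the members. Zfp90 itself did not pass in the same limma fit, at 0.48 ± 0.15 SE (1.4-fold, adjusted p = 0.678). In the males alone Zfp90 differed by 0.69 ± 0.11 SE (limma, adjusted p = 0.206), and between the females by -0.02.

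**Figure D1:**
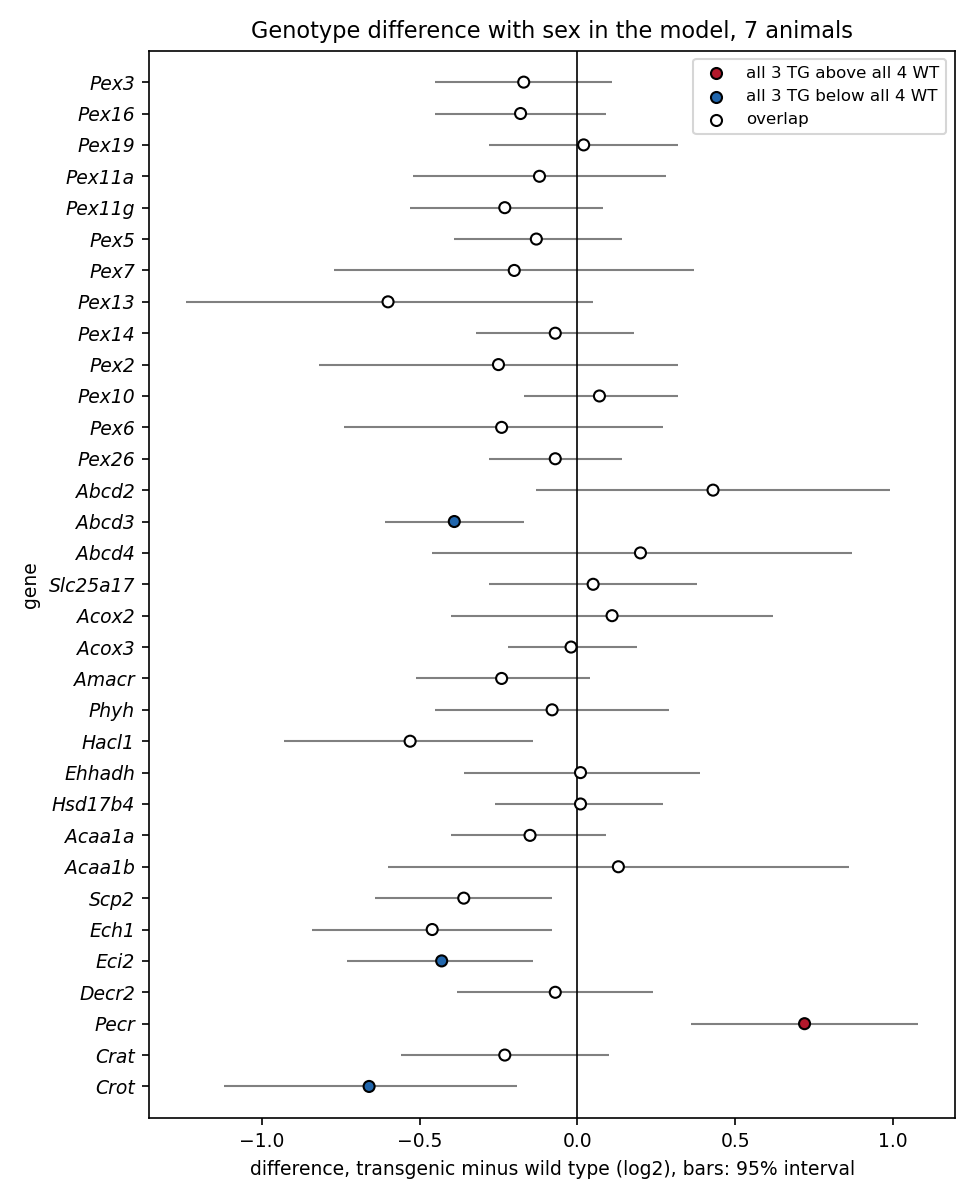
Fitted difference between transgenic and wild-type animals for each of the 33 genes on the log2 scale (points), with 95% intervals (bars). Filled points mark genes in which the 3 transgenic animals all lay on one side of the 4 wild-type animals: Pecr above, and Abcd3, Eci2 and Crot below. The intervals of Pecr, Abcd3, Hacl1, Scp2, Ech1, Eci2 and Crot do not reach 0, before adjustment for the number of features.

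In 4 members the genotypes did not overlap. The transgenic group lay wholly above the wild-type group in 1 of the 33, where 3.17% of all features did so, and wholly below it in 3, where 2.84% did. The enzyme on the higher side was Pecr, an enoyl-CoA reductase that saturates the double bond of acyl-CoA chains in the peroxisome. It read 0.86 in the transgenic female and 0.77 and 0.33 in the transgenic males. Wild-type males stood at 0.15, -0.13 and -0.28, and the animal labelled wild-type female at -0.07. The lowest transgenic value therefore stood 0.33 above the pool, while no wild-type animal exceeded 0.15. The transgenic mean was 0.65 ± 0.28 (SD, n = 3), the wild-type mean -0.08 ± 0.18 (SD, n = 4), and the fitted difference was 0.72 ± 0.15 SE, 1.65-fold (95% interval 0.36 to 1.08; limma, adjusted p = 0.555). By unadjusted p, Pecr ranked at position 75 of the 22218 features.

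The 3 genes on the lower side act at entry, in the handling of double bonds and at exit. Abcd3, a transporter of acyl-CoAs and a major protein of the hepatic peroxisomal membrane, read -0.56 in the transgenic female and -0.30 and -0.21 in the transgenic males. Wild-type males read 0.13, -0.02 and 0.13, and the animal labelled wild-type female -0.05. Its spread was narrow in wild-type animals (SD 0.10, n = 4), and the fitted difference of -0.39 ± 0.09 SE was a 1.31-fold lower ratio (adjusted p = 0.614).

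Eci2, an isomerase that moves a double bond so that unsaturated chains can enter the spiral, read -0.45 in the transgenic female and -0.35 and -0.50 in the transgenic males. The wild-type values were 0.04, 0.26 and -0.19 in males and -0.09 in the animal labelled female. The transgenic animals were close together (SD 0.08, n = 3) and the difference was -0.43 ± 0.13 SE (adjusted p = 0.677). Crot, the carnitine octanoyltransferase that turns shortened chains into esters for export to mitochondria, read -1.06 and -0.59 in the transgenic males but -0.23 in the transgenic female. Wild-type males read -0.21, -0.19 and 0.36, and the animal labelled wild-type female 0.06. The transgenic female thus lay only just below the lowest wild-type male, and the separation came from the males. The difference was -0.66 ± 0.20 SE, a 1.58-fold lower ratio (adjusted p = 0.677), and with quantile normalization between arrays Crot overlapped while the other 3 did not.

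**Figure D2:**
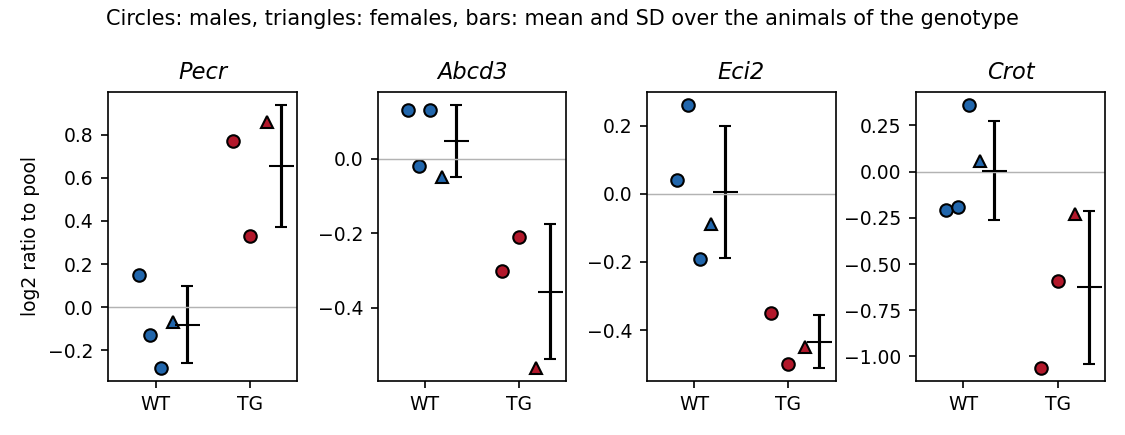
Log2 ratio to the pool of each animal for Pecr, Abcd3, Eci2 and Crot, by genotype (WT, wild type; TG, transgenic). Circles are males, triangles females, and bars give the mean and SD over the 4 wild-type or 3 transgenic animals. The gap between genotypes is narrowest in Crot, where the transgenic female at -0.23 lies next to a wild-type male at -0.21.

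The number of separated members depended on single animals. It was 10 without wild-type male 3, where 17.3% of all features separated in either direction, 7 without the animal labelled wild-type female (13.4%) and 7 without transgenic male 2 (15.4%), against 6.01% with all animals. Pecr, Abcd3, Eci2 and Crot were among those separated with each of the 7 animals left out in turn. That outcome was fixed, since genes separated with all animals stay separated when any animal is removed. Leaving out wild-type male 3 added Ech1 and the peroxins Pex5, Pex6, Pex11g, Pex14 and Pex16, all on the lower side.

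The RefSeq sequence before the starts of these 4 genes (build GRCm38.p6) is shown because their genotypes did not overlap, though none passed the test. Each stretch is the 250 bases upstream of an annotated start, written 5′ to 3′ on the gene's strand, and capitals mark matches to CCAAT or to the GC box GGGCGG on either strand.
Pecr (chr1:72284322-72284571, minus strand): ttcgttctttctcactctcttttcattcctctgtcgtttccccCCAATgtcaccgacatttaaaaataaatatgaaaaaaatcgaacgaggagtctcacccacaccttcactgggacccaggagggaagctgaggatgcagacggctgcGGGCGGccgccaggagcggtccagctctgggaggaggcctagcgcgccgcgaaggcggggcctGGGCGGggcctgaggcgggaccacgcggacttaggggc
Abcd3 (chr3:121815303-121815552, minus strand): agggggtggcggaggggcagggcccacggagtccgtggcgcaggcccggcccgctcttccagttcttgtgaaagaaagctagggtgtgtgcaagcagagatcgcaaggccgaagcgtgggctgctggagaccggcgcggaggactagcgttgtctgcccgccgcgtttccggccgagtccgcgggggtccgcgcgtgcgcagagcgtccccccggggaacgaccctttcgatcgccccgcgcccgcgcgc
Eci2 (chr13:34994145-34994394, minus strand): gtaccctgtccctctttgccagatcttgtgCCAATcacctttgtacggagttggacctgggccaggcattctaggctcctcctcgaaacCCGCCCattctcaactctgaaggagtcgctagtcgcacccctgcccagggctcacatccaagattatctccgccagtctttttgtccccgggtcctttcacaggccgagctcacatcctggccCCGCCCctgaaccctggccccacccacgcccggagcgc
Crot (chr5:8997147-8997396, minus strand): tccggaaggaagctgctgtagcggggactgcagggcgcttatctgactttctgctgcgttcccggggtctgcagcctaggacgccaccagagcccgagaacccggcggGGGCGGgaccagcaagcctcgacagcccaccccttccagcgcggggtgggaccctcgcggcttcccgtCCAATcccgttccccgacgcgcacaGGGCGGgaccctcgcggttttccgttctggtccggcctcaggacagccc
The Eci2 stretch belongs to a start inside the annotated span of that gene. Pecr, the gene with the positive difference, and Eci2 and Crot, with negative ones, each held 1 CCAAT and 2 GC boxes, so these letters were shared by genes on opposite sides. The Abcd3 stretch held neither motif. Its GC content was 72.0%, beside 69.6% for Crot, 61.2% for Eci2 and 60.0% for Pecr.

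RefSeq held an upstream entry for 26 of the 33 genes (31 entries). A GC box occurred in 19 of these entries and in 32.7% of all 32851 entries of the same length, which include non-coding genes, and CCAAT occurred in 13, beside 33.8%. The palindromic E-box CACGTG occurred in 0 of them (6.02% of all) and TATAAA in 3, those of Pex14, Pex16 and Pex26 (12.4%). The direct repeat to which PPAR alpha binds with its partner RXR ideally sets 2 copies of AGGTCA in a row with 1 base between them (DR1). With up to 2 mismatches on either strand it matched 0 of the 31 entries and 3.24% of all. Its single arm, AGGTCA, was found upstream of Pex11g and Scp2 (14% of all entries). The search covered 250 bases only, and no match says only that these letters are not in this window.

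Of the 5 peroxins that build the membrane and divide the organelle, 4 had a negative difference and 0 passed, with a median of -0.170. Pex3, Pex16 and Pex19, which insert membrane proteins, differed by -0.17, -0.18 and 0.02 between genotypes, and Pex11a and Pex11g, which act in the growth and division of peroxisomes, by -0.12 and -0.23. Pex11g had the smallest p of this group (0.123, adjusted p = 0.764). It read -0.25 in the transgenic female and -0.21 and -0.16 in the transgenic males. The wild-type values were -0.01, -0.28 and 0.18 in males and 0.17 in the animal labelled female. Wild-type male 3 lay below all transgenic animals, and without that animal the genotypes did not overlap. Pex11a, a known target of PPAR alpha, ran from -0.36 to 0.27 in wild-type animals and from -0.36 to -0.07 in transgenic ones, with a 95% interval for the difference of -0.52 to 0.28.

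Among the import receptors and the dock, only Pex13 differed by more than 0.25 in size. Pex13, a docking protein of the membrane, read -0.62 in the transgenic female and -0.72 and 0.11 in the transgenic males. The wild-type males read 0.09, -0.15 and 0.85, and the animal labelled wild-type female 0.04. Wild-type male 4 was the highest and transgenic male 2 lay among the wild-type animals. The difference was -0.60 ± 0.28 SE (adjusted p = 0.731), and it ranged from -0.86 to -0.35 as each animal was left out. Pex5, receptor for the common carboxy-terminal targeting signal, differed by -0.13 ± 0.11 SE, and Pex14, the partner of Pex13, by -0.07 ± 0.11 SE. Pex7, receptor for the rarer amino-terminal signal, differed by -0.20 ± 0.24 SE, with an interval from -0.77 to 0.37.

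Of the genes that recycle the import receptor, the ubiquitin ligases Pex2 and Pex10 differed by -0.25 ± 0.24 and 0.07 ± 0.10 SE. The ATPase Pex6 and its membrane anchor Pex26 differed by -0.24 ± 0.22 and -0.07 ± 0.09 SE. Pex6 read -0.39 in the transgenic female and -0.06 and -0.03 in the transgenic males. Wild-type males stood at 0.30, -0.48 and 0.36, and the animal labelled wild-type female at 0.16. The lowest value was again wild-type male 3, so the wild-type animals spanned the transgenic ones (adjusted p = 0.877).

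The same arrays stood at the ends of the order in many peroxins. Wild-type male 4 was the highest animal in 9 of 13 peroxins and in 14 of 33 members, where it was highest in 18.8% of all features. Wild-type male 3 was the lowest in 4 of the 13 peroxins, beside 14.2% of all features. The transgenic female was the lowest in 4 others, beside 19.4% of all features. Pex2, Pex6 and Pex7 each read 0.36 in wild-type male 4 and -0.48 in wild-type male 3, and -0.51, -0.39 and -0.55 in the transgenic female, so that animal was the lowest in Pex2 and Pex7 and wild-type male 3 in Pex6. Over the 3 wild-type males alone, the median SD was 0.197 for the peroxins and 0.222 for the other members, beside 0.150 for all features. The cause of these differences between arrays was not tested.

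**Figure D3:**
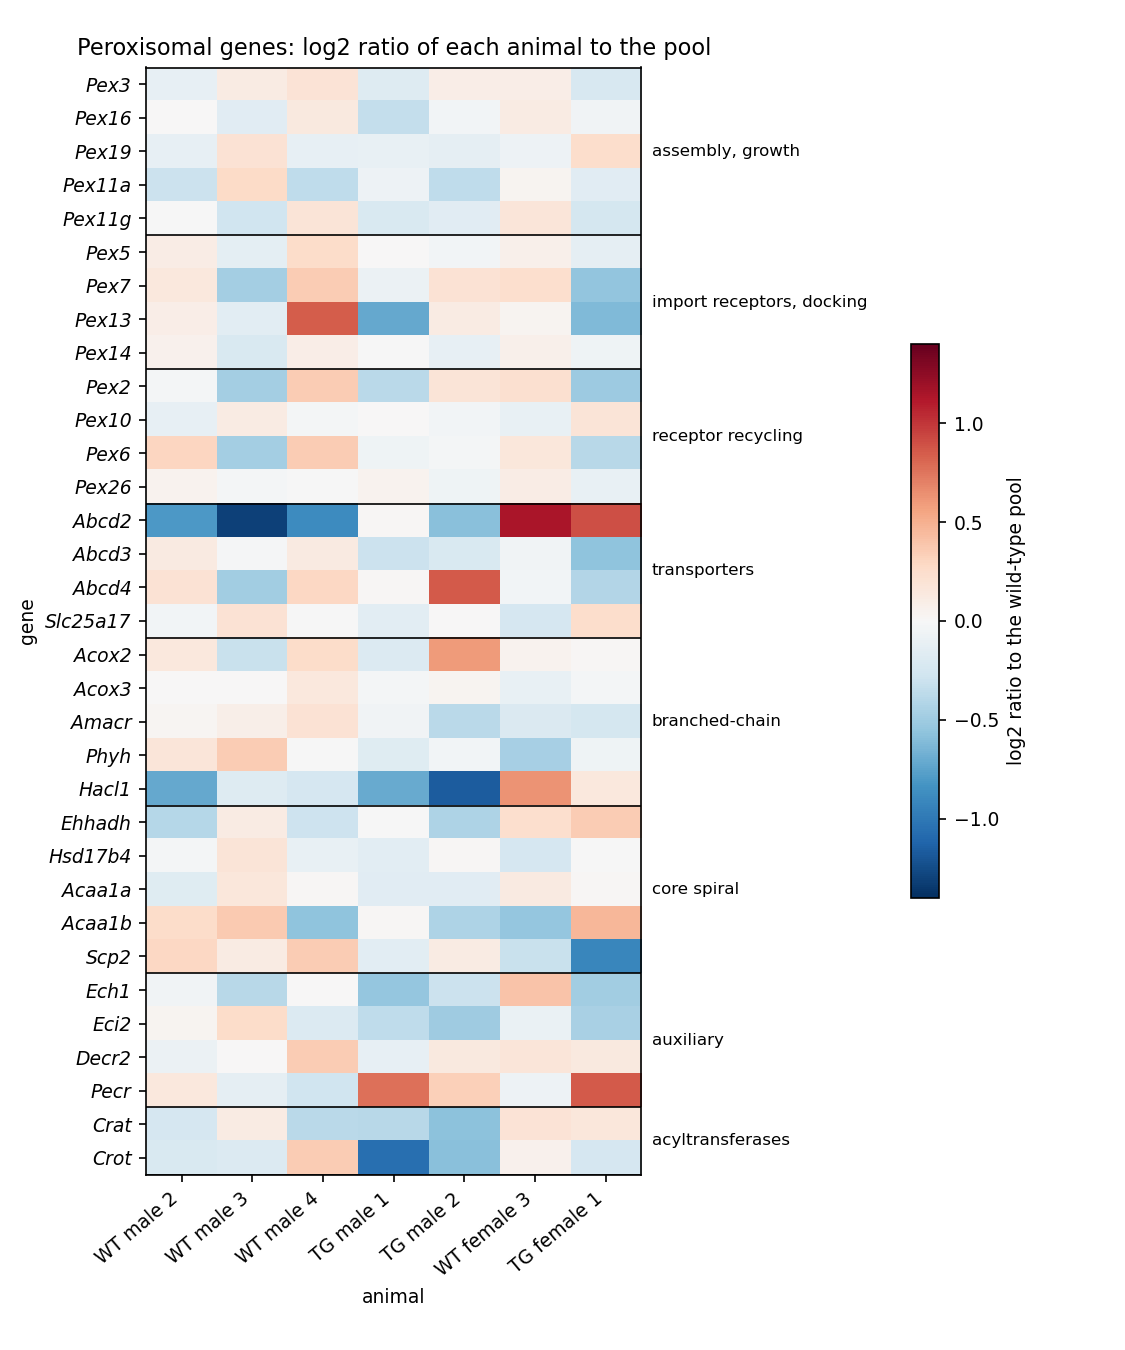
Log2 ratio to the pool for the 33 genes (rows, grouped by role) in the 7 animals (columns; WT, wild type; TG, transgenic). Red is above and blue below the pool, on a scale that runs from -1.4 to 1.4. The columns of wild-type male 4 and wild-type male 3 take opposite colours in many peroxins, Abcd2 and Hacl1 follow the sex of the animal, and Pecr is red in the 3 transgenic animals.

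The transporters did not move as a group, with differences of 0.43 for Abcd2, -0.39 for Abcd3, 0.20 for Abcd4 and 0.05 for Slc25a17. Abcd4, a member of the same transporter family now known as a lysosomal cobalamin carrier, read 0.86 in transgenic male 2, with the other animals between -0.49 and 0.29. Slc25a17, a carrier of cofactors such as CoA across the peroxisomal membrane, ranged from -0.23 to 0.25, and its difference was -0.13 in the males alone.

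Enzymes of branched chains and of bile acid side chains were mixed. Hacl1, the lyase that removes 1 carbon in alpha-oxidation, had the smallest p of this group, at -0.53 ± 0.17 SE (1.45-fold lower, adjusted p = 0.689). It read 0.15 in the transgenic female and -0.71 and -1.16 in the transgenic males. The wild-type values were -0.72, -0.18 and -0.23 in males and 0.63 in the animal labelled female. Wild-type male 2 matched transgenic male 1, so the genotypes overlapped within the males as well. Phyh, the hydroxylase that starts the breakdown of phytanic acid, differed by -0.08 ± 0.16 SE. Amacr, the racemase that makes branched chains fit for the oxidases, differed by -0.24 ± 0.12 SE, and the branched-chain oxidases Acox2 and Acox3 by 0.11 ± 0.22 and -0.02 ± 0.09 SE. For Acox3 the 95% interval ran from -0.22 to 0.19, one of the narrowest among the members.

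In the core spiral, both bifunctional enzymes had differences near 0, Ehhadh at 0.01 ± 0.16 SE and Hsd17b4 at 0.01 ± 0.11 SE. Their 95% intervals ran from -0.36 to 0.39 and from -0.26 to 0.27, so differences within those bounds remained compatible with the values. The thiolase genes Acaa1a and Acaa1b, close copies of each other whose probes may share signal, differed by -0.15 ± 0.10 and 0.13 ± 0.31 SE. Scp2, which gives rise to a thiolase for branched chains and to a lipid transfer protein, had the smallest p of this group. It read -0.91 in the transgenic female and -0.15 and 0.11 in the transgenic males. Wild-type males stood at 0.29, 0.11 and 0.35, and the animal labelled wild-type female at -0.31. Both females lay below all males, and within each sex the transgenic mean was the lower, a difference of -0.36 ± 0.12 SE (adjusted p = 0.709).

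Besides Pecr and Eci2, the auxiliary enzymes included Ech1 and Decr2, which rearrange and reduce chains with several double bonds. Ech1 read -0.49 in the transgenic female and -0.54 and -0.30 in the transgenic males. The wild-type values were -0.05, -0.39 and 0.01 in males and 0.40 in the animal labelled female. Wild-type male 3 alone lay within the transgenic range, and the difference was -0.46 ± 0.16 SE (1.38-fold lower, adjusted p = 0.718). Decr2 differed by -0.07 ± 0.13 SE. Of the 4 auxiliary enzymes, Pecr thus had a positive difference and the other 3 a negative one. Crat, the acetyl counterpart of Crot, was at -0.39 and -0.57 in the transgenic males and -0.23, 0.11 and -0.38 in the wild-type males, while the females read 0.16 and 0.19 (difference -0.23 ± 0.14 SE).

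The sexes were next compared, since genotype differences had to be read beside them. In the same model 0 of 33 members passed, where 78 of 22218 features (0.351%) did. An unadjusted p under 0.05 was reached by 4 members on the female-higher side (3.65% of all features), namely Abcd2, Hacl1, Ehhadh and Crat, and by Scp2 on the lower side (5.57%). Both females lay above all 5 males in the same 4 genes, and below them in Scp2 and Acox3, where 12.9% of all features separated in either direction.

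Abcd2, a transporter of very long and polyunsaturated chains, had the widest range of all 33 genes. The animal labelled wild-type female read 1.14 and the transgenic one 0.90, against -0.80, -1.31 and -0.88 in the wild-type males. The transgenic males lay between these groups, at 0.02 and -0.58, above every wild-type male. Females exceeded males by 1.69 ± 0.26 SE, 3.22-fold (limma, adjusted p = 0.0613), so it did not pass. Of the 7 fits that each left out 1 animal, 2 passed, at an adjusted p of 0.0292 without the transgenic female and 0.0326 without transgenic male 1. The highest was 0.384, without the animal labelled wild-type female, where the difference was 1.18, and with quantile normalization it was 0.161. Between genotypes the difference was 0.71 ± 0.23 SE in the males alone (adjusted p = 0.565) and -0.24 between the 2 females. The interaction of genotype with sex was -0.95 in limma, with an adjusted p of 0.609. Hacl1 was higher in females by 1.04 ± 0.18 SE (adjusted p = 0.0942), and Scp2 lower by 0.71 on the log2 scale (SE 0.13, adjusted p = 0.105).

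**Figure D4:**
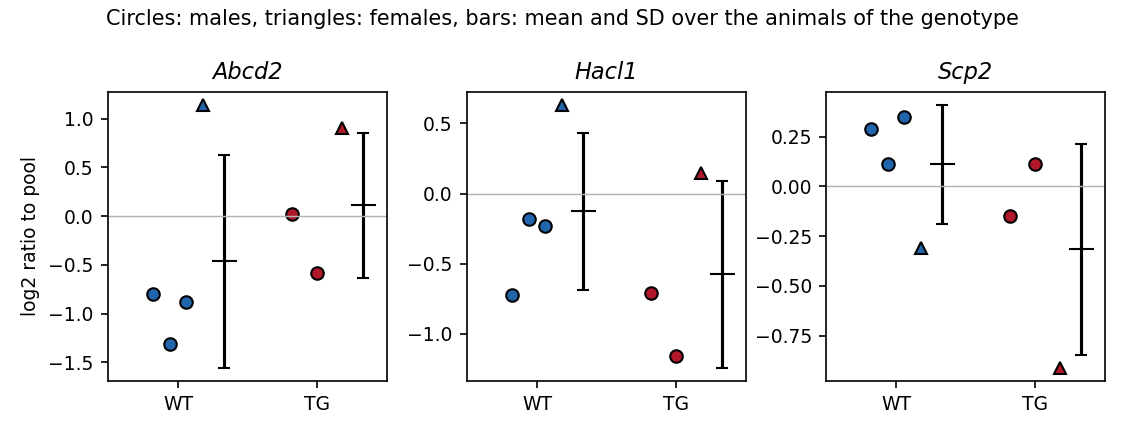
Log2 ratio to the pool of each animal for Abcd2, Hacl1 and Scp2, the members with the smallest p between sexes, drawn by genotype (WT, wild type; TG, transgenic). Triangles are females, circles males, and bars give the mean and SD over the animals of a genotype, which here includes the gap between sexes. The triangles lie above every circle in Abcd2 and Hacl1 and below every circle in Scp2.

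Genotype differences were then taken within each sex. In the males 28 of 33 differences were negative (55.4% of all features), and between the 2 females 24 of 33 were (47.7%). The sign was negative in both sexes for 20 members (26.6% of all features) and positive in both for 1, Pecr, and it differed for 12 members (50% of all features). Both comparisons share the pool on every array. With the males fitted alone, 0 members passed in limma, where 7 features did (0.0315%), and 6 had an unadjusted p under 0.05, Pecr and Abcd2 higher and Abcd3, Eci2, Crot and Hacl1 lower, beside 6.96% of all features. In the males the genotypes separated in 8 members, where 22.6% of features did in either direction.

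Members with opposite signs included Acaa1b, Phyh and Slc25a17. Acaa1b read 0.46 in the transgenic female and -0.54 in the animal labelled wild-type female, while the males ran from -0.56 to 0.37 across both genotypes. Phyh was -0.17 and -0.04 in the transgenic males, below 0.17, 0.36 and -0.01 in the wild-type males, but -0.06 in the transgenic female against -0.46 in the animal labelled wild-type female. For Slc25a17 the females read 0.25 and -0.23, the transgenic males -0.15 and 0.00, and the wild-type males -0.04, 0.20 and -0.01. The interaction had an unadjusted p under 0.05 in 2 members, Phyh (0.68) and Slc25a17 (0.60), where 8.42% of all features did. After adjustment 0 members passed, at 0.554 and 0.556 for these, while 16 features did (0.072%). With 1 female of each genotype, the spread in this test came from the males.

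**Figure D5:**
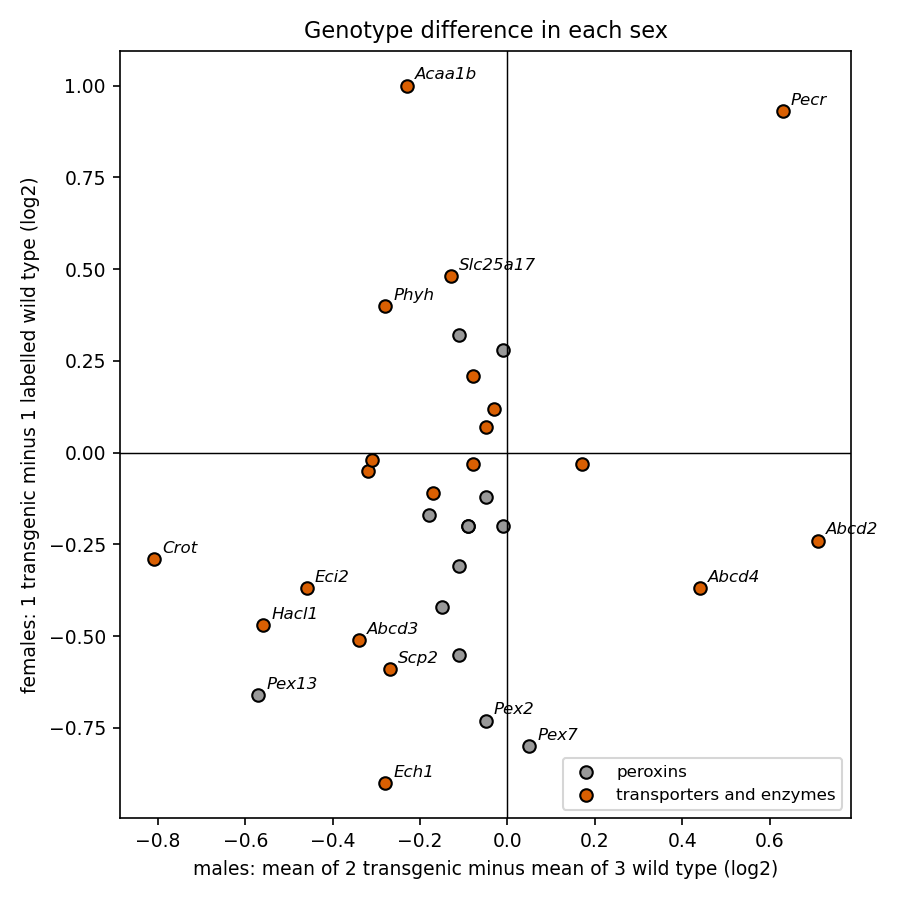
Genotype difference in females (1 transgenic minus 1 labelled wild type) against that in males (mean of 2 minus mean of 3) for the 33 genes, both on the log2 scale. Grey points are peroxins and orange points transporters and enzymes. The lower left field, negative in both sexes, holds 20 genes, and Pecr is alone at the upper right.

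The other gene lists place these values. Of 37 measured genes for other peroxisomal proteins, 0 passed, 16 differences were positive and 21 negative, and the median was -0.028. The smallest p in that list belonged to Hsdl2, a short-chain dehydrogenase family protein of the peroxisome (-0.58 ± 0.09 SE, adjusted p = 0.475). Slc27a2, the very-long-chain acyl-CoA synthetase and fatty acid transporter, differed by -0.60 ± 0.12 SE, and Gstk1, a peroxisomal glutathione transferase, by 0.63 ± 0.14 SE. In these 3 genes the genotypes did not overlap. Over the 37 genes, 3 were separated on the higher side and 3 on the lower, beside 3.17% and 2.84% of all features. Hao2, a hydroxyacid oxidase, differed by 1.56 ± 0.40 SE with sex in the model (adjusted p = 0.653). It was higher in the females, at 2.17 in the transgenic one and 1.87 in the one labelled wild type. Transgenic males read -2.85 and -1.63, above the wild-type males at -4.33, -4.16 and -4.47.

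Among 19 measured PPAR alpha targets outside the peroxisome, 0 passed, with 14 negative and 5 positive differences and a median of -0.157. Genotypes were separated in 1 of the 19, on the lower side, where 2.84% of all features were. The 4 with the smallest p were the fatty acid transporter Cd36, which differed by 1.60 ± 0.22 SE, the carnitine carrier Slc25a20 (-0.47 ± 0.11), the retinol saturase Retsat (-0.68 ± 0.18) and the kinase Pdk4 (-0.31 ± 0.13). Of 15 measured genes of mitochondrial beta-oxidation 0 passed, with 12 negative and a median of -0.180. Genotypes were separated in 5 of the 15, all on the lower side, beside the same 2.84% of all features. Hadha and Hadhb, the subunits of the trifunctional protein, differed by -0.47 ± 0.09 and -0.87 ± 0.22 SE, and Eci1 and Decr1, mitochondrial counterparts of Eci2 and Decr2, by -0.40 ± 0.08 and -0.36 ± 0.13 SE. The peroxisomal Decr2, at -0.07, and the mitochondrial Decr1 were not compared with each other by a test.

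Mean ratios over cell type markers overlapped between genotypes in every list but the hepatocyte one, where the gap was narrow. Mean log2 ratios over 10 hepatocyte markers ran from -0.30 to -0.11 in the transgenic animals and from -0.10 to 0.05 in the wild-type animals. The highest transgenic mean, -0.11, thus lay next to the lowest wild-type mean, -0.10. Of these markers 6 had a negative and 4 a positive difference. Means over 12 of 13 Kupffer cell and macrophage markers ran from 0.27 to 0.52 in the transgenic animals and from -0.62 to -0.21 in the wild-type males. The animal labelled wild-type female had the highest mean, 0.70, so the genotypes overlapped. The part of either cell type in the peroxisomal values was not tested. In whole liver RNA, fewer cells of a type and less RNA per cell cannot be told apart. Means over the endothelial, stellate, bile duct, lymphocyte, neutrophil, adipocyte, red blood cell and pancreatic lists also overlapped between genotypes.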

How the data were processed

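Liver RNA of 7 mice was measured on 2-colour arrays against a wild-type pool. For each of 23574 probes the authors deposited 7 values, each a log10 ratio. The log base was inferred from limits at exactly -2 and 2. Per the labels, spin columns with a DNase step gave the RNA, which was labelled by an aminoallyl method. Background correction, normalization, centring and the treatment of dye swaps are not given in the sources used here. Column medians on the log10 scale ran from -0.0042 to 0.0093. The number of arrays limits the precision.

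Conversion to log2 used a factor of 3.32. In GEO's platform annotation 17824 probes had 1 symbol, 50 several and 5700 none. Gene numbers were found for 17724 in NCBI's gene table (GRCm38.p6), with 0 symbols updated. Probes of a gene were averaged, giving 22218 features.

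Differences were fitted with limma 3.58.1 in R 4.3.3 (lmFit, eBayes; genotype and sex; all 7 arrays), with Benjamini-Hochberg adjustment across the 22218 features and a threshold of 0.05. Whether replicates are separate litters is not stated, so p-values measure the spread between these animals. On simulated data for transgenic against wild type (22218 features) the fit found 86 of 100 planted changes of 3-fold and 21 of 100 of 1.5-fold, and 6 of its 113 calls were false. The simulated noise was independent for each gene and array, while pairs of real arrays correlated from -0.495 to 0.501. These counts may therefore overstate what the fit can find in the real data, where it called 0 features. The members, lists and tests were chosen with earlier results of these data known. Values in every animal were given for members without overlap, for the smallest genotype p in each role, and for the 3 smallest sex and interaction p. Up to 4 genes with the smallest p were named from each other list. Ech1, Crat, Abcd4, Acaa1b and Pex2, Pex7 and Pex11a were added after their values were seen. Alternatives were other normalizations, models, feature sets and leaving out each animal.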

Additional observations from a re-analysis of the deposited data

Results flagged for a closer look

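In the wild-type group of 4, wild-type male 3 stood apart from the others in 2 of the 33 genes by Dixon's test. Pex19, the carrier of new membrane proteins, read 0.20 there and -0.11 to -0.07 in the other wild-type animals. Pex14, a protein of the import dock, read -0.21 there and 0.06 to 0.09 in the others. Chance alone flags about 5% of such groups. The cause was not tested.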

How the results depend on the processing

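The adjusted p of every member named for a genotype difference stayed above 0.05 under all alternatives, and 0 members passed in each. Over 12 such members, 5 values changed sign, in 2 genes: Slc25a17 was -0.13 in the males alone and ran from -0.13 to 0.16 as single animals were left out, and Phyh ran from -0.28 to 0.03. Features past the threshold rose from 0 to 7 in the males alone, to 4 when only features above the median in mean ratio size were tested (24 members, median -0.213 in place of -0.127), and ran from 0 to 7 with animals left out. Separated members numbered 8 in the males alone and 4 to 10 with animals left out. Fewer animals make separation easier. The features with larger ratios were picked by the same values that were then tested. What passed among them, for genotype or for sex, was therefore not independent of that choice. For the sexes, features past the threshold numbered 47 with quantile normalization, 162 among those larger ratios, with 2 members (Abcd2 and Hacl1), and 36 to 254 with animals left out, with 0 to 1 members. For the interaction they numbered 3 with quantile normalization and 7 among named genes alone. For the genotype difference, though not for the sexes, leaving out either female gives the fit of the males alone. Centring or quantile normalization moved the median of all features by 0.008. The causes of these shifts were not tested. No paired analysis was possible because the genotypes share fewer than 2 replicate numbers within a sex. Signal over background is unknown, which limits what can be said of dim probes.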
